A study of Homo sapiens with 6 samples.

Results

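The 10 genes described here encode the kinases that carry the DNA damage checkpoint signal, ATM, ATR, CHEK1, CHEK2, WEE1 and PKMYT1, the CDC25 phosphatases CDC25A, CDC25B and CDC25C, and the ATR activator TOPBP1. They were taken by gene symbol from a table of 16798 coding genes, and all 10 were present. The measurements come from bulk RNA-seq of COV434 cells in 3 untreated control samples and 3 samples exposed to 15 µM 4HC for 24 h. The authors describe COV434 as an immortalized human granulosa cell (GC) line, and the labels call the cells wild type. 4HC (4-hydroxycyclophosphamide) is the active form of the alkylating drug cyclophosphamide (CTX). Each sample held 16133786 to 16702316 expected counts, which are estimates of the reads from each gene. The sources used here do not say whether the 3 samples of a group were grown as separate cultures, so the p-values measure only the spread between these samples, which may be technical.

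Alkylated and crosslinked DNA stalls replication forks and leads to breaks, and the checkpoint kinases delay the cell cycle while the damage is dealt with. ATR, brought to single-stranded DNA and activated by TOPBP1, acts mainly through CHEK1, whereas ATM responds to double-strand breaks and acts largely through CHEK2. WEE1 and PKMYT1 place inhibitory phosphates on cyclin-dependent kinases and CDC25 phosphatases remove them, so that entry into S phase and mitosis depends on the balance between these enzymes. Most of this control acts on the proteins, by phosphorylation and degradation, which RNA-seq does not measure.

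The label of the cells was compared with the markers of its tissue. Of 14 GC markers, 13 were in the table and 4 reached 1 TPM (a level scaled to transcript length and to a fixed sum per sample) in any sample. The other GC markers stayed under 1 TPM in every sample, so most of the list does not bear out the GC label. FOXL2, a transcription factor that defines GCs, had 0 to 3 counts per sample. FSHR, the receptor for follicle-stimulating hormone, and CYP19A1, the aromatase, had at most 1 count each. AMH, a hormone made by GCs, had 63 to 106 counts. WT1 had 2741 to 3602 counts and fell in 4HC (log2 fold change -0.35), the only GC marker of the 4 tested by edgeR that was called. The summed level of the GC markers, most of which was WT1 (a mean of 133 TPM in control), was 158.95 to 167.16 TPM in control and 132.4 to 138.61 TPM in 4HC. HSD17B1, a steroid dehydrogenase, had a mean of 22.5 TPM in control and 22.2 TPM in 4HC, and AMH 5.34 and 5.39 TPM. Endothelial markers summed to at most 0.27 TPM and immune markers to at most 3.25 TPM. The stromal and theca markers summed to 53.4 to 58.78 TPM in control and 53.47 to 56.17 TPM in 4HC. Most of that was LUM and DCN (means of 43.2 and 11.5 TPM in control), and the others in that list averaged at most 0.94 TPM in control. Oocyte markers summed to 17.27 to 21.05 TPM in control and 18.24 to 21.96 TPM in 4HC, mostly ZP3. Epithelial markers summed to 6.36 to 8.57 TPM in control and 7.72 to 8.16 TPM in 4HC. The part of shifts in marker levels in the results below was not tested.

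After 4HC, 6 of the 10 genes were higher and 0 were lower. PKMYT1 rose most, by 60.3%, followed by CDC25C (24.3%), CHEK2 (23.5%), CDC25A (14.2%), TOPBP1 (11.8%) and CDC25B (9.24%). ATM, ATR, CHEK1 and WEE1 did not pass the test. The comparison was made with edgeR's quasi-likelihood test on counts over 12368 genes, and a gene was called when its p-value, adjusted by the Benjamini-Hochberg method over all of them, was under 0.05. Of all genes tested, 19.2% were called higher in 4HC and 17.1% lower, 36.4% in either direction. DESeq2 called 5 of the 10 genes higher and 0 lower, beside 14.1% and 13.9% of its genes (27.9% in either direction). All 10 genes had enough counts to be tested. Their log2 fold changes ran from -0.11 to 0.68 with a median of 0.14, beside a median of 0.0047 over all genes tested. When edgeR's results were instead held to a fold change of 2 or more and an unadjusted p under 0.05, 0 of the 10 genes were called, and 1.02% of all genes were called higher and 0.129% lower (1.15% in either direction). In bulk RNA, fewer cells of a kind or a cell cycle phase and less RNA per cell cannot be told apart.

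**Figure D1:**
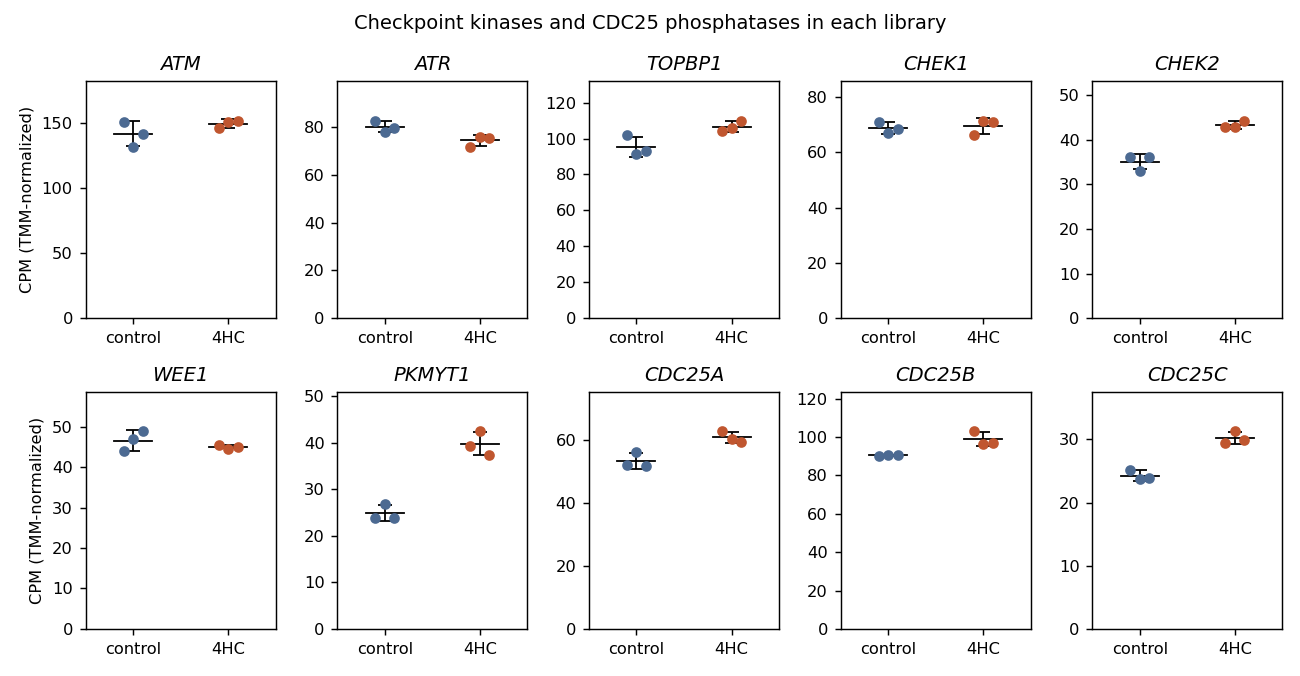
Counts scaled to library size by the TMM method (CPM, vertical axes from 0) of each gene in the 3 control and 3 4HC libraries. Points are libraries, and the horizontal line and bars are the mean and SD. The 4HC points lie above all control points in 6 genes and below them in ATR.

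ATM and ATR sit at the top of the pathway. Expression is given as CPM, counts scaled to library size by the TMM method, which does not account for gene length. ATM (NCBI Gene 472, chr11:108222484-108369102) measured 151, 132 and 142 CPM in control and 146, 151 and 152 CPM in 4HC. The groups overlapped, with the first control library inside the range of the 4HC libraries. The means were 142 ± 9.34 CPM in control and 149.7 ± 3.43 CPM in 4HC (SD, n = 3), with a log2 fold change of 0.08 (95% interval -0.0050 to 0.158) and an edgeR adjusted p-value of 0.139. Without control replicate 1 the log2 fold change was 0.12 with an edgeR adjusted p-value of 0.0329, so that library decided whether ATM was called. On the TPM scale ATM varied more among controls, with 21.72, 19.75 and 26.16 TPM, against 22.3, 21.67 and 23.36 TPM in 4HC.

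ATR (NCBI Gene 545, chr3:142447861-142578793) measured 82.7, 78.0 and 79.6 CPM in control and 71.7, 76.0 and 75.4 CPM in 4HC. It was the gene among the 10 in which every 4HC library lay below every control library, a pattern found in 21.9% of all genes tested. The means were 80.1 ± 2.40 and 74.4 ± 2.32 CPM (SD, n = 3), and the log2 fold change of -0.11 (95% interval -0.198 to -0.0170) had an edgeR adjusted p-value of 0.0556. The call moved across the threshold with small changes of the processing. The adjusted p-value was 0.0407 in edgeR without control replicate 2 (log2 fold change -0.13) and ranged from 0.0407 to 0.257 over the 15 alternatives.

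TOPBP1 (NCBI Gene 11073, chr3:133599762-133661968), the scaffold protein that switches on ATR, measured 102, 91.4 and 92.9 CPM in control and 104, 106 and 110 CPM in 4HC. All 4HC libraries lay above the controls, although the first control library came close to the lowest of them. TOPBP1 rose from 95.3 ± 5.56 to 106.5 ± 2.97 CPM (SD, n = 3), a log2 fold change of 0.16 (95% interval 0.0734 to 0.247) with an edgeR adjusted p-value of 0.00266.

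CHEK1 and CHEK2 are the effector kinases below ATR and ATM. CHEK1 (NCBI Gene 1111, chr11:125624910-125676255) measured 71.1, 66.9 and 68.4 CPM in control and 66.2, 71.5 and 71.1 CPM in 4HC. The groups overlapped fully, and the lowest value of all was a 4HC library. The log2 fold change of 0.02 had a 95% interval of -0.0782 to 0.111 and an edgeR adjusted p-value of 0.822. Its sign turned without control replicate 2 (-0.0047) and without 4HC replicate 2 (-0.0048), neither of which was called.

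CHEK2 (NCBI Gene 11200, chr22:28687743-28741866) measured 36.1, 33.1 and 36.1 CPM in control and 42.8, 42.9 and 44.3 CPM in 4HC. The 3 4HC libraries lay close together and clear of the controls. CHEK2 rose from 35.1 ± 1.71 to 43.3 ± 0.81 CPM (SD, n = 3), a log2 fold change of 0.30 (95% interval 0.192 to 0.417) with an edgeR adjusted p-value of 1.73e-05.

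WEE1 and PKMYT1 are the kinases that inhibit cyclin-dependent kinases, WEE1 mainly in the nucleus and PKMYT1 at internal membranes. WEE1 (NCBI Gene 7465, chr11:9573670-9590848) measured 43.9, 47.0 and 48.9 CPM in control and 45.4, 44.6 and 45.1 CPM in 4HC. The 4HC values lay inside the range of the controls. The log2 fold change of -0.05 had a 95% interval of -0.156 to 0.0586 and an edgeR adjusted p-value of 0.509.

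PKMYT1 (NCBI Gene 9088, chr16:2971690-2980494) measured 23.9, 26.8 and 23.8 CPM in control and 39.4, 42.5 and 37.5 CPM in 4HC. The gap between the groups was wider than the spread within either. PKMYT1 rose from 24.8 ± 1.73 to 39.8 ± 2.51 CPM (SD, n = 3), a fold change of 1.60 and a log2 fold change of 0.68 (95% interval 0.554 to 0.807) with an edgeR adjusted p-value of 5.79e-13. It kept its call under all 15 alternatives, with log2 fold changes of 0.63 to 0.74. The coordinates of PKMYT1 share 1803 bases with PAQR4, which measured 37.4 ± 1.19 CPM in control and 43.6 ± 2.11 CPM in 4HC and rose less (log2 fold change 0.22, edgeR adjusted p-value 0.00135). The counts of PKMYT1 were not whole numbers in any library (387.49 in the first control), so some of its reads were divided with another gene, and its values are uncertain to that extent. By the deposited coordinates PKMYT1 also lies within LOC100652777, whose span is given as chr16:281917-14733780. So wide a span does not show that the 2 genes share reads. LOC100652777 had 6.27 to 16 counts.

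CDC25A, CDC25B and CDC25C are the phosphatases that remove the inhibitory phosphates, with CDC25A known for its part in S phase entry and all of them for mitotic entry. All 3 rose. CDC25A (NCBI Gene 993, chr3:48157146-48188417) measured 52.0, 56.2 and 51.7 CPM in control and 62.8, 60.2 and 59.5 CPM in 4HC, without overlap. It rose from 53.3 ± 2.52 to 60.9 ± 1.75 CPM (SD, n = 3), a log2 fold change of 0.19 (95% interval 0.0916 to 0.292) with an edgeR adjusted p-value of 0.00182.

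CDC25B (NCBI Gene 994, chr20:3786895-3806118) measured 90.2, 90.6 and 90.7 CPM in control and 103, 96.4 and 97.1 CPM in 4HC. The controls were nearly equal, and the first 4HC library stood above the other two. CDC25B rose from 90.5 ± 0.264 to 98.9 ± 3.67 CPM (SD, n = 3), a log2 fold change of 0.13 (95% interval 0.0425 to 0.212) with an edgeR adjusted p-value of 0.0147. Without 4HC replicate 1 the log2 fold change was 0.09 with an edgeR adjusted p-value of 0.124, and with DESeq2 it was 0.12 with an adjusted p-value of 0.0531, so this call rests on that library and on the tool.

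CDC25C (NCBI Gene 995, chr5:138285265-138338355) measured 25.2, 23.8 and 23.9 CPM in control and 29.4, 31.3 and 29.9 CPM in 4HC. The groups did not overlap. CDC25C rose from 24.3 ± 0.801 to 30.2 ± 0.964 CPM (SD, n = 3), a log2 fold change of 0.31 (95% interval 0.188 to 0.441) with an edgeR adjusted p-value of 6.68e-05.

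**Figure D2:**
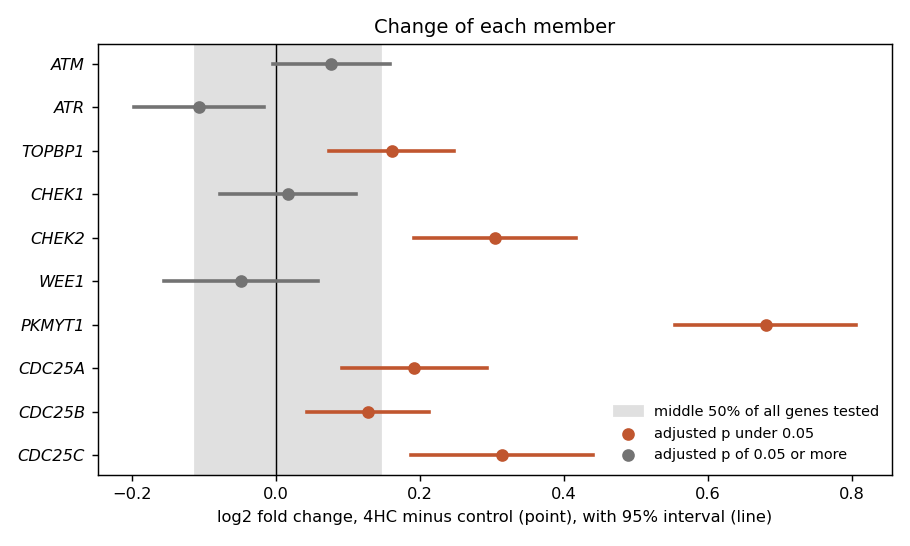
Log2 fold change of each gene, 4HC minus control (horizontal axis, points), with its 95% interval (lines). Orange marks an adjusted p-value under 0.05 and grey the rest, and the band holds the middle 50% of all genes tested (-0.11 to 0.15). PKMYT1 stands at 0.68, and ATM, ATR, CHEK1 and WEE1 are the 4 genes in grey.

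Counting libraries alone, without the test, 6 genes had all 4HC libraries above all controls and 1 had them below, beside 23.4% and 21.9% of all genes tested (45.3% in either direction). The 6 genes were the same 6 that passed the test. The spread between control libraries was between 0.291% of the mean (CDC25B) and 6.96% (PKMYT1), and between 4HC libraries it was between 0.892% (WEE1) and 6.30% (PKMYT1).

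Some of the 10 genes overlap the coordinates of other coding genes. NPAT, which shares 155 bases with ATM, rose from 31.9 ± 2.89 to 40.5 ± 3.45 CPM (log2 fold change 0.34). C11orf65, which shares 60584 bases with ATM, had 6 to 13 counts, and ACRV1, which shares 4734 bases with CHEK1, had 0 to 8 counts. The other neighbours did not pass the test, namely XRN1 beside ATR (202 shared bases, log2 fold change 0.01), TF beside TOPBP1 (74 bases, -0.03) and FAM53C beside CDC25C (799 bases, 0.06). Whether the reads were counted by strand is not given in the sources used here, so strand cannot tell reads of overlapping stretches apart. Unlike those of PKMYT1, the counts of ATR, TOPBP1, CHEK1 and CDC25C were whole numbers in every library. Those of ATM were whole in all but the first control (2451.7).

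Levels between genes were compared per length, in TPM. In control, CDC25B was highest at 54.5 ± 0.501 TPM (SD, n = 3), followed by CHEK1 at 37.6 ± 0.677 and CHEK2 at 35.96 ± 2.09 TPM, whose libraries overlapped. TOPBP1 came next at 28.3 ± 1.80 TPM. CDC25A, ATM, PKMYT1, WEE1 and CDC25C lay between 21.3 and 23.6 TPM, and neighbours in this order overlapped between libraries. ATR was lowest at 15.9 ± 0.530 TPM, below CDC25C in every control library. In 4HC, PKMYT1 at 35.1 ± 2.01 TPM lay above TOPBP1 at 31.7 ± 0.998 TPM in every library, and CHEK2 at 43.6 ± 0.761 TPM lay above CHEK1 at 39.1 ± 1.18 TPM. CDC25C at 26.3 ± 0.584 TPM lay above ATM at 22.4 ± 0.854 and WEE1 at 21.3 ± 0.322 TPM, beside which it had been slightly lower in control. CDC25B at 59.2 ± 2.60 TPM was still highest and ATR at 14.7 ± 0.367 TPM still lowest.

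For 3 pairs of related kinases the ratio of counts was taken within each library, which does not depend on the scaling between libraries. These pairs were chosen after the values were seen. The count of PKMYT1 was 0.543, 0.571 and 0.487 times that of WEE1 in control and 0.867, 0.952 and 0.832 times in 4HC. The mean ratio was 0.534 ± 0.0425 in control and 0.883 ± 0.0617 in 4HC (SD, n = 3). From the means of the log2 ratios, the ratio was 1.66 times higher in 4HC, and the other pairs are given in the same way. The ratio of CHEK2 to CHEK1 was 0.507, 0.495 and 0.527 in control and 0.646, 0.601 and 0.622 in 4HC, 1.22 times higher. The ratio of ATM to ATR was 1.83, 1.70 and 1.79 in control and 2.03, 1.99 and 2.02 in 4HC, 1.14 times higher. In each pair the groups did not overlap in counts, and the two-sided exact permutation p-value was 0.1, the smallest that 3 samples against 3 allow. Because the pairs were picked with their values known, the permutation p-values here only describe the values and cannot test a difference. From TPM, the ratio of ATM to ATR was 1.32, 1.28 and 1.64 in control and 1.56, 1.45 and 1.57 in 4HC, so that the groups overlapped (exact permutation p-value 0.4), while those of the other pairs remained apart.

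**Figure D3:**
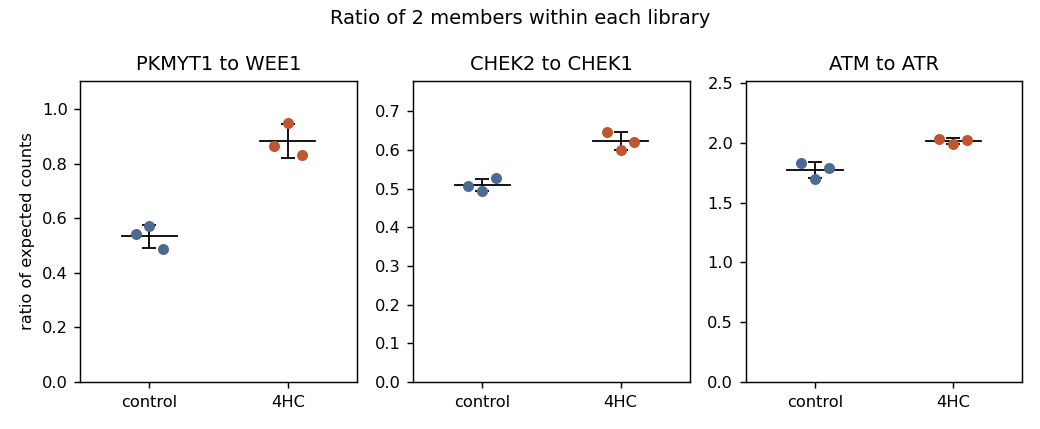
Ratio of the expected counts of a pair of genes within each library (vertical axes from 0, no unit) in control and 4HC. Points are libraries, and the line and bars are the mean and SD. In counts, all 4HC points lie above all control points in each pair, and the PKMYT1 to WEE1 ratio goes from 0.534 to 0.883.

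The deposited transcript table divides each gene's reads among its annotated transcripts. The 10 genes had 79 transcripts, of which 43 had a mean of at least 20 expected counts in either group, and 47 were tested. edgeR called 0 of them, beside 0.706% of all transcripts tested called higher and 0.587% lower (1.29% in either direction). Before adjustment, 5 of them had an edgeR p-value under 0.05. The share of all transcripts at that unadjusted threshold was not counted, so these 5 have no background to compare with. DESeq2 called 4 of 51 it tested, all higher, beside 2.29% of all transcripts higher and 2.39% lower (4.68% in either direction). With a minimum of 10 counts in every sample, edgeR called 2 of 37, both higher, beside 1.86% higher and 1.59% lower (3.45% in either direction). The 4 called by DESeq2 were the main transcript NM_004203 and XM_011522734 of PKMYT1, NM_007194 of CHEK2 and NM_021873 of CDC25B. The error of dividing reads among transcripts is not part of these tests.

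Within PKMYT1, NM_004203 held 52.6% of the transcript counts in control and 53.2% in 4HC, and its mean count was 214 in control and 347 in 4HC (log2 fold change 0.70, edgeR adjusted p-value 0.0683). XM_011522734 measured 72.7, 67.9 and 65.5 counts in control and 176.1, 133.3 and 102.7 in 4HC, without overlap (edgeR adjusted p-value 0.173). Within CDC25B, transcripts stood on opposite sides. NM_021873 averaged 338 counts in control and 519 in 4HC (log2 fold change 0.62, edgeR adjusted p-value 0.0682), and NM_021872 measured 240.3, 197.3 and 236.8 counts in control and 116.6, 0 and 51.6 in 4HC (edgeR adjusted p-value 0.765). In CHEK1, whose total was level, transcripts also differed in direction, and edgeR called none of them. NM_001274 measured 450.6, 449.8 and 581.5 counts in control and 429.6, 368.5 and 412.2 in 4HC, and XM_017017146 measured 178.6, 223.4 and 194.2 in control and 290.8, 252.7 and 314.7 in 4HC. Neither group pair overlapped, and the edgeR adjusted p-values were 0.461 and 0.187. How many of all transcripts lacked overlap was not counted, so the lack of overlap is only a description. WEE1 was nearly a single transcript, with 94.3% of its control counts in NM_003390, at 719 counts in control and 713 in 4HC.

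**Figure D4:**
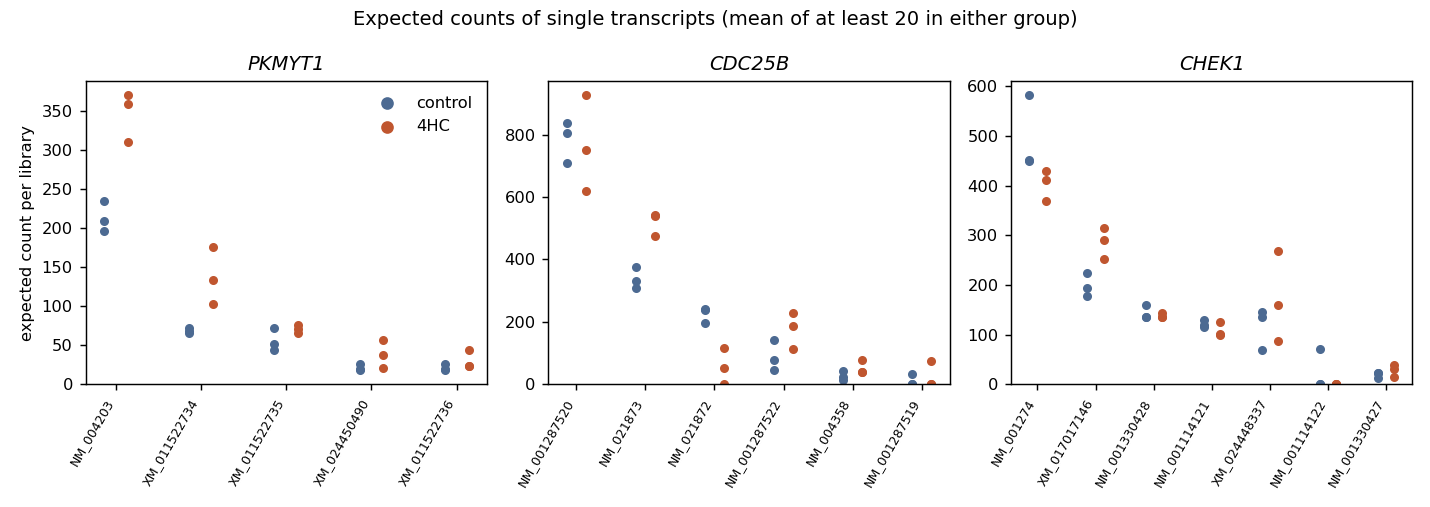
Expected counts per library (vertical axes from 0) of the annotated transcripts of PKMYT1, CDC25B and CHEK1 with a mean of at least 20 counts in either group. Each point is a library, blue for control and orange for 4HC. The 4HC points of NM_004203 and NM_021873 lie above the controls, and those of NM_001274 and NM_021872 below them.

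Reference promoters were examined for letters of motifs known from cell cycle genes, chosen with the values known. RefSeq (GRCh38.p14) windows of 300 bases, 250 before a start and 50 after it, were given for 8 of the genes (17 windows), and for PKMYT1 and WEE1 none was matched. On both strands, an E2F-type site (TTTCCCGC, TTTCGCGC, TTTGCCGC or TTTGGCGC) was in 3.31% of all 35116 windows and in 2 of the 17, of CDC25A and TOPBP1. TTTGAA, the letters of the cell cycle homology region, were in 15.2% of all windows and in 3 of the 17, of ATM and CDC25C. CCAAT was in 34.6% of all windows and in 11 of the 17, of ATM, CDC25A, CDC25B, CDC25C, CHEK1 and CHEK2. Windows of the same gene can overlap and then hold the same site, as for a CCAAT of CHEK1 and the TTTGAA of CDC25C. The 17 windows are therefore not independent, and their shares were not tested against those of all windows. ATR held none of these letters in its windows. The 120 bases before a start are shown for 4 of the genes that rose, as examples of windows with such matches, with the letters in capitals and each sequence on its gene's strand, the minus strand of the genome. They lie at chr3:48188418-48188537 (CDC25A), chr3:133661942-133662061 (TOPBP1), chr5:138331805-138331924 (CDC25C) and chr22:28741821-28741940 (CHEK2).
CDC25A: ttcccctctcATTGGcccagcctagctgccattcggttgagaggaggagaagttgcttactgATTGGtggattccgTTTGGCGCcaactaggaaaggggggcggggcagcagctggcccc
TOPBP1: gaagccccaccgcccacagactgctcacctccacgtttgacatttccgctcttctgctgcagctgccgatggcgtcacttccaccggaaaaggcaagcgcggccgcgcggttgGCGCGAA
CDC25C: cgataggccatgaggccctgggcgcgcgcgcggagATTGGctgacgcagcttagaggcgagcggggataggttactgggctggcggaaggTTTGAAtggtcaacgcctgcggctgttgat
CHEK2: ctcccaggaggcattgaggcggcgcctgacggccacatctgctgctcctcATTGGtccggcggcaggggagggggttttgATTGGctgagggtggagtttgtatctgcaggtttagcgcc
In these lines ATTGG is CCAAT read on the other strand. The capitals of TOPBP1 are an E2F-type site read in the same way, without its last letter, which lies past the bases shown. Matches within the same distance of a start were also found in CDC25B, which rose, and in ATM and CHEK1, which were not called. A match of letters is a description and was not tested as a binding site.

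The rest of the pathway was followed in 6 lists of 58 genes, of which 56 were tested. edgeR called 16 of them higher and 17 lower, and the median log2 fold change was -0.01. The counts of this and of each list below stand beside 19.2% of all genes tested called higher and 17.1% lower (36.4% in either direction). No list was tested as a set.

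Of 11 genes tested that bring ATR to the fork and activate it, 4 were higher and 1 lower (median log2 fold change 0.04). TIMELESS, which protects the fork, rose from 95.4 ± 0.623 to 140 ± 2.37 CPM (log2 fold change 0.55). Claspin (CLSPN), the adaptor through which ATR phosphorylates CHEK1, rose from 68.0 ± 2.90 to 87.4 ± 2.26 CPM (0.36). RHNO1 (0.29) and ATRIP, the partner that recruits ATR (0.27), rose as well, and TIPIN, the partner of TIMELESS, fell (-0.20). The 9-1-1 clamp genes RAD9A, RAD1 and HUS1, which sit at the fork with TOPBP1, had log2 fold changes of 0.12, 0.04 and -0.08 and did not pass the test.

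Of 11 break sensors and chromatin adaptors on the ATM side, 4 were higher and 4 lower (median 0.01). BRCA1 rose from 40.8 ± 4.05 to 56.9 ± 0.950 CPM (log2 fold change 0.48). MRE11, the nuclease of the complex that recruits ATM, rose from 63.5 ± 3.23 to 88.1 ± 2.44 CPM (0.47), whereas its partners RAD50 (-0.02) and NBN (0.01) did not pass the test. MDC1, which binds phosphorylated H2AX, fell (-0.25), and H2AX itself rose (0.24). Of 7 ATM- and ATR-like kinases and the proteins that assemble them, TTI1 rose (0.22) and SMG1 fell (-0.18).

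Of 7 genes for cyclin-dependent kinases and their cyclin partners, 3 were higher and 2 lower (median 0.11). Cyclin E2 (CCNE2) rose from 22.4 ± 0.222 to 33.9 ± 1.40 CPM (log2 fold change 0.60), CDK2 from 91.0 ± 0.907 to 123 ± 3.70 CPM (0.44), and CDK1 also rose (0.26). Cyclin B1 (CCNB1), the mitotic partner of CDK1, fell from 176 ± 7.57 to 119 ± 5.58 CPM (-0.57), and CCNB2 fell too (-0.27).

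Of 14 genes for proteins that bind, activate or degrade WEE1 and CDC25 proteins, 0 were higher and 9 lower in edgeR (median -0.15). The number lower was 6 to 10 over the alternatives, and 1 gene was called higher when no filter on low counts was used. PLK1, the polo kinase that activates CDC25C and marks WEE1 for degradation, measured 115, 116 and 117 CPM in control and 73.6, 71.6 and 64.6 CPM in 4HC. It fell by 0.73 on the log2 scale, with an edgeR adjusted p-value of 2.1e-19, in all 3 libraries. AURKA, the kinase that activates PLK1, fell from 102 ± 3.50 to 78.4 ± 2.19 CPM (-0.38). Of the genes for 14-3-3 proteins, which hold phosphorylated CDC25 away from the nucleus, YWHAG (-0.32), YWHAZ (-0.18), YWHAQ (-0.17), YWHAE (-0.16) and YWHAB (-0.09) fell, and YWHAH (-0.04) did not pass the test. SFN had too few counts to be tested, and near the floor its values went the other way. It measured 0, 0 and 0.0603 CPM in control and 0.241, 0.617 and 0.551 CPM in 4HC.

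Of 6 genes of the p53 branch, which ATM and CHEK2 feed, 4 were higher and 0 lower (median 0.56). CDKN1A, the inhibitor of cyclin-dependent kinases also called p21, measured 220, 233 and 221 CPM in control and 800, 786 and 764 CPM in 4HC (log2 fold change 1.80, edgeR adjusted p-value 2.56e-42). MDM2, the ligase that degrades p53, rose from 446 ± 3.87 to 879 ± 5.42 CPM (0.98). PPM1D, the phosphatase that shuts off ATM and CHEK2 signalling, rose from 70.1 ± 0.612 to 120 ± 0.933 CPM (0.78), and GADD45A rose by less (0.35).

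**Figure D5:**
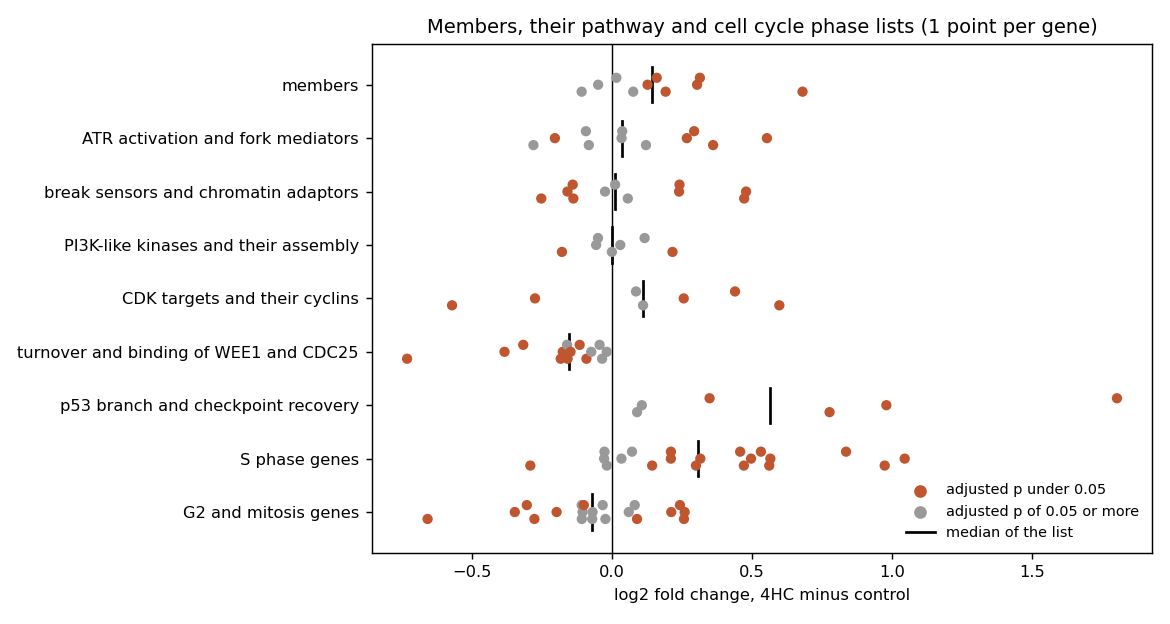
Log2 fold change, 4HC minus control (horizontal axis), of every tested gene in the 10 members, the 6 pathway lists and the lists of S phase and of G2 and mitosis genes (rows, 1 point per gene, vertical offsets only separate points). Orange points have an adjusted p-value under 0.05, and black lines are medians, which run from -0.15 for turnover and binding of WEE1 and CDC25 to 0.56 for the p53 branch.

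Several of the 10 genes are themselves expressed with the cell cycle, so genes of its phases are given beside them. Among all genes tested, edgeR called 19.2% higher and 17.1% lower. Of 20 S phase genes, 14 were higher and 1 lower in 4HC (median log2 fold change 0.31), with PCNA at 1.04, CDT1 at 0.97 and RRM2 at 0.84, and MCM6 lower at -0.29. Of 20 G2 and mitosis genes, 5 were higher and 6 lower (median -0.07), with CDC20 at -0.66, CENPA at -0.35 and KIF20A at -0.30. CDC25C at 0.31 and PLK1 at -0.73 thus lay on opposite sides of that median. The part of a shift in cell cycle phase in the changes of the 10 genes was not tested.

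The 3 genes whose log2 CPM followed PKMYT1 most closely over the 6 libraries, among genes of at least 5 CPM, were NR4A1 (Pearson r 0.9997), CYBC1 (0.9995) and NEIL3 (0.998). These values describe 6 points in 2 groups, and in all 3 genes, as in PKMYT1, the 4HC libraries lay above the controls. NR4A1 went from 4.65 to 7.96 CPM, CYBC1 from 30.2 to 36.6 CPM and NEIL3 from 17.6 to 24.3 CPM. In the deposited annotation, 9 of the 10 genes, all but TOPBP1, belong to the KEGG cell cycle pathway, 4 to p53 signalling (ATM, ATR, CHEK1 and CHEK2), 5 to cellular senescence (the same 4 and CDC25A) and 4 to progesterone-mediated oocyte maturation (PKMYT1 and the 3 CDC25 genes).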

How the data were processed

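Total RNA of 6 COV434 samples was sequenced. Adapter and low-quality reads were removed by the authors with SOAPnuke, and analysis was done in the Dr. Tom system. The submitters' processing notes name HISAT2, Bowtie2, RSEM 1.3.1, DESeq2 1.4.5 and GRCh38.p13, without a role for each. The authors deposited expected counts per gene and transcript, which are not normalized (85.5% of the gene values were whole). The deposited TPM values sum to 1000000 in each sample after scaling to length. FPKM values, also deposited, are scaled to length and library size. The authors' fold changes, p-values and q-values were not used, nor was the deposited strand column.

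After rounding of the expected counts, edgeR 4.0.16 was run under R 4.3.3 (filterByExpr, TMM, quasi-likelihood test, condition as the only term), and limma 3.58.1 and DESeq2 1.42.0 served as alternatives. Coordinates are those of the deposited table. The members and lists were chosen with earlier results of these data known. The text names all members, up to 3 called genes with the largest change in each list, the defining GC markers, overlapping genes and the 3 genes most like PKMYT1. ATRIP, TIPIN, RAD9A, RAD1, HUS1, RAD50, NBN, H2AX, HSD17B1, CDK1, CCNB2, the remaining 14-3-3 genes, GADD45A and MCM6 were added after their values were seen. Members had 386 to 2491 counts per library. Replicates differed by more than counting noise in every pair (chi-square per gene 1.7 to 2.46). The alternatives are given at the end.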

Additional observations from a re-analysis of the deposited data

How the results depend on the processing

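The results were recomputed with DESeq2, with its size factors in edgeR, with library size alone, without a filter, with a minimum of 10 counts in every sample, with the replicate number as a block, with limma on log2(TPM + 1), log2(TPM + 0.1) and log2(FPKM + 1), and without each library in turn. The rise of PKMYT1, CHEK2, CDC25C, CDC25A and TOPBP1 kept its call under all 15 of these. The number of members called higher was 5 to 7 and lower 0 to 1 without single libraries. When a fold change of 2 or more with p under 0.05 before adjustment was required, 0 members, 126 genes higher and 16 lower were called, and limma on log2(FPKM + 1) called 1343 genes lower against 2118 in edgeR. ATR was called lower with DESeq2 size factors (1 member, log2 fold change -0.1126) and with the minimum of 10 counts (1 member, -0.1099), and its range without single libraries was -0.1276 to -0.0864. ATM ranged from 0.0276 to 0.1208 and CHEK1 from -0.0048 to 0.0462 without single libraries, and CHEK1 turned sign without control replicate 2 (-0.0047). CDC25B was not called with DESeq2 (0.1215) or limma on log2(TPM + 1) (0.1154) and log2(TPM + 0.1) (0.1172), and ranged from 0.0912 to 0.1434 without single libraries. Of the members' transcripts, DESeq2 called 4 higher and the minimum of 10 counts 2, against 0. The cause of these differences was not tested. The within-library ratios, added after seeing the data, were lower in TPM for CHEK2 to CHEK1 (log2 change 0.2257 against 0.2893 in counts) and for ATM to ATR (0.119 against 0.1858), whose groups then overlapped.

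Deviations from the group means correlated at -0.0529, -7.37e-05 and 0.132 between same-numbered libraries (10273 genes) and at -0.178 to 0.185 between the others, so the numbers were not taken as pairs. With the replicate block 6 members were higher and 0 lower, and 2259 genes were higher and 1954 lower. The scaling alternative that moved the median log2 fold change of all genes most was library size alone, by 0.0207. The lowest counts among the members were those of CDC25C and PKMYT1, at 386 to 689, and with 3 libraries a group no outlier test was run.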
